A study of Homo sapiens with 27 samples.

Results

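Aminoacyl-tRNA synthetases are the enzymes that join each amino acid to its tRNA, and 36 of the 13523 genes in the deposited table of 501mel cells were taken here as members by their symbols, 20 that encode enzymes of the cytosol and 16 that encode enzymes of the mitochondrion and carry symbols ending in 2. The set was chosen by name and not by a measured value, though with earlier results of these data known. All 36 members passed the filter on low values. The line 501mel is a human melanoma line with high MITF, and gene expression was measured by 3′ end RNA-seq in 9 groups of 3 labelled libraries. Wild-type (WT) cells were untreated, kept for 12 h in HBSS, a buffered salt solution that contains glucose and lacks amino acids, or given 250 nM Torin1, an inhibitor of the mTOR kinase, for 12 h. The other 6 groups were TFE3 KO, TFEB KO and double KO (DKO, lacking both TFE3 and TFEB) cells, each untreated or given the same Torin1 treatment, and no knockout was placed in HBSS. Each knockout line was made with Cas9 and is 1 clone, so the effect of the genotype and the history of the clone cannot be told apart. No label says that replicates were separate cultures, so each p-value measures the spread between libraries, which may be technical.

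Most synthetases of the cytosol are encoded by genes separate from those of the mitochondrion, although GARS and KARS each supply both compartments. In the cytosol, 8 of the enzymes, among them EPRS, IARS, KARS, LARS, MARS, QARS and RARS, sit in a multi-synthetase complex and the other 12 genes encode freestanding enzymes. When amino acids run short, uncharged tRNA activates the kinase GCN2, which raises translation of the transcription factor ATF4, and many cytosolic synthetase genes are known targets of ATF4 through amino acid response elements. The kinase complex mTORC1, which Torin1 blocks, is also known to raise ATF4 output, and TFE3 and TFEB are transcription factors that mTORC1 keeps out of the nucleus.

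The libraries held 4147050 to 6526392 reads, and a value is a read count scaled by the authors for library size, called a normalised read count here. The columns of WT HBSS replicate 3 and of WT Torin replicate 1 did not differ in any of the 13523 genes, so both were left out and 25 libraries remained, with 2 in each of those groups. All 7 melanocyte markers searched were in the table, and of 8 markers of other lineages COL1A1, a fibroblast collagen, was the only member present, at 0.153 to 0.883 in TFE3 KO untreated libraries and 3.27 to 5.06 in DKO untreated libraries. TFE3 lay at 17.5 to 25.1 normalised read counts in the WT libraries, at 5.06 to 14.0 in TFE3 KO libraries and at 5.93 to 8.46 in DKO libraries. TFEB lay at 2.34 to 3.96 in WT untreated libraries and at 0.611 to 3.45 in TFEB KO libraries, and it was as low in TFE3 KO untreated libraries, at 0.177 to 1.56, so it does not separate these clones, and the value of 3 reads was 0.460 to 0.711. A 3′ end tag can remain after a Cas9 edit and says nothing of the protein.

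At the level of the whole set, the cytosolic synthetases were higher in HBSS and lower with Torin1. The mitochondrial sum lay the other way in both treatments, by fewer normalised read counts from a lower untreated sum. The 20 cytosolic genes summed to a mean of 4238 ± 81.5 normalised read counts in WT untreated cells (SD, n = 3), 7045 ± 22.0 in HBSS (SD, n = 2) and 3468 ± 66.6 with Torin1 (SD, n = 2). The 16 mitochondrial genes summed to 466 ± 16.9, 425 ± 7.09 and 548 ± 8.34 in the same groups. The ranges of the 3 WT groups did not overlap for either set. In the knockouts, Torin1 libraries summed to 3080 to 3532 for the cytosolic genes against 3972 to 4252 in untreated knockout libraries. The mitochondrial sum had means of 497, 418 and 460.3 in untreated TFE3 KO, TFEB KO and DKO cells and of 530.5, 465 and 495 with Torin1. Both sums add values scaled for library size and are relative to the reads that were counted. A change in RNA per cell, in cell mix or in the remaining genes cannot be told apart from a change in these transcripts. Since a 3′ end library gives reads at the end of each transcript, values were not divided by length, and on this scale the median member in WT untreated cells stood at 190.5 for the cytosolic set, 25.2 for the mitochondrial set and 18.2 over all genes. TARS, which charges threonine, was the highest cytosolic member at a mean of 522 and IARS, which charges isoleucine, the lowest at 52.2, while the mitochondrial set ran from PARS2, for proline, at 6.37 to AARS2, for alanine, at 68.1.

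**Figure D1:**
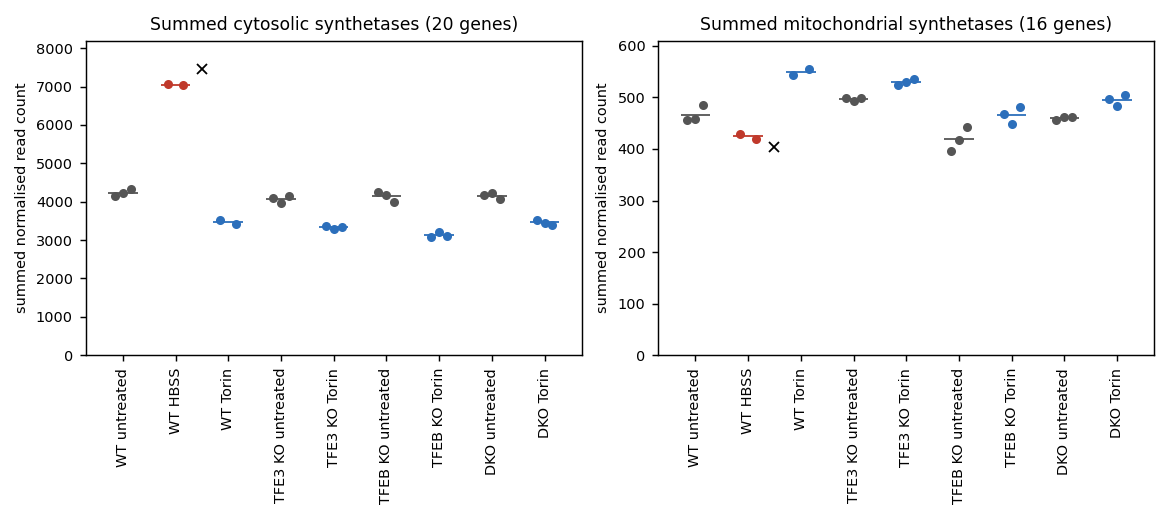
Summed normalised read count of the 20 cytosolic (left) and 16 mitochondrial (right) synthetase genes in each library, by group; points are libraries, horizontal lines are group means, and the cross is the column that the table holds under both a WT HBSS and a WT Torin name. The HBSS libraries stand above all others for the cytosolic sum and the Torin libraries stand below the untreated libraries of their genotype.

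HBSS was compared with complete medium containing serum in WT cells, so that the lack of amino acids cannot be told apart from the other differences between the media. In the limma fit over all genes, 13 of the 20 cytosolic members rose, 4 fell and 3 did not pass the test (Benjamini-Hochberg adjusted p under 0.05), against 23.6% of all 13052 genes tested that rose and 24.7% that fell. At a log2 fold change of at least 1, 7 cytosolic members rose, against 6.90% of all genes. The median log2 fold change was 0.61 over the cytosolic members and -0.03 over all genes.

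GARS, which charges glycine in both compartments, lies at chr7:30580533-30634033 on the plus strand (hg38, GENCODE). It had 217, 235 and 246 normalised read counts in WT untreated libraries and 765 and 733 in HBSS. This was a log2 fold change of 1.68 (SE 0.09, adjusted p = 3.65e-20), the largest of any member. SARS, the serine enzyme (chr1:109213918-109238182, plus strand), went from 233, 244 and 254 to 681 and 698, a log2 fold change of 1.50 (SE 0.08, adjusted p = 4.80e-21). For both genes the HBSS libraries lay far above the highest untreated library, which was at 246 for GARS and 254 for SARS. AARS, the alanine enzyme (chr16:70251983-70289707, minus strand), had 211, 212 and 237 untreated and 618 and 595 in HBSS, a log2 fold change of 1.46 (SE 0.10, adjusted p = 5.56e-17). CARS, the cysteine enzyme, had 157, 159.9 and 148 against 391 and 386, a log2 fold change of 1.32 (SE 0.09, adjusted p = 8.42e-18). YARS, the tyrosine enzyme, had 146, 145 and 156 against 315 and 329.6, a log2 fold change of 1.11 (SE 0.10, adjusted p = 1.74e-13). The groups of these 3 genes were again far apart relative to the scatter within them. Over all genes, groups did not overlap in 63.1% in this comparison. IARS, the isoleucine enzyme, was the least even of the strong members, with 55.4, 55.6 and 45.5 untreated and 104 and 114 in HBSS, a log2 fold change of 1.06 (SE 0.26, adjusted p = 0.00236). TARS had a log2 fold change of 1.05, from 507 to 538 untreated to 1099 and 1058 in HBSS. The smaller rises were those of MARS (methionine) at 0.94, NARS (asparagine) at 0.72, LARS (leucine) at 0.62, EPRS (glutamate and proline) at 0.60, QARS (glutamine) at 0.48 and WARS (tryptophan) at 0.40 on the log2 scale. The call for WARS was lost when the identical column was kept as a WT Torin library, with an adjusted p of 0.221, and no other rise of a cytosolic member was lost under any of 15 alternatives.

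**Figure D2:**
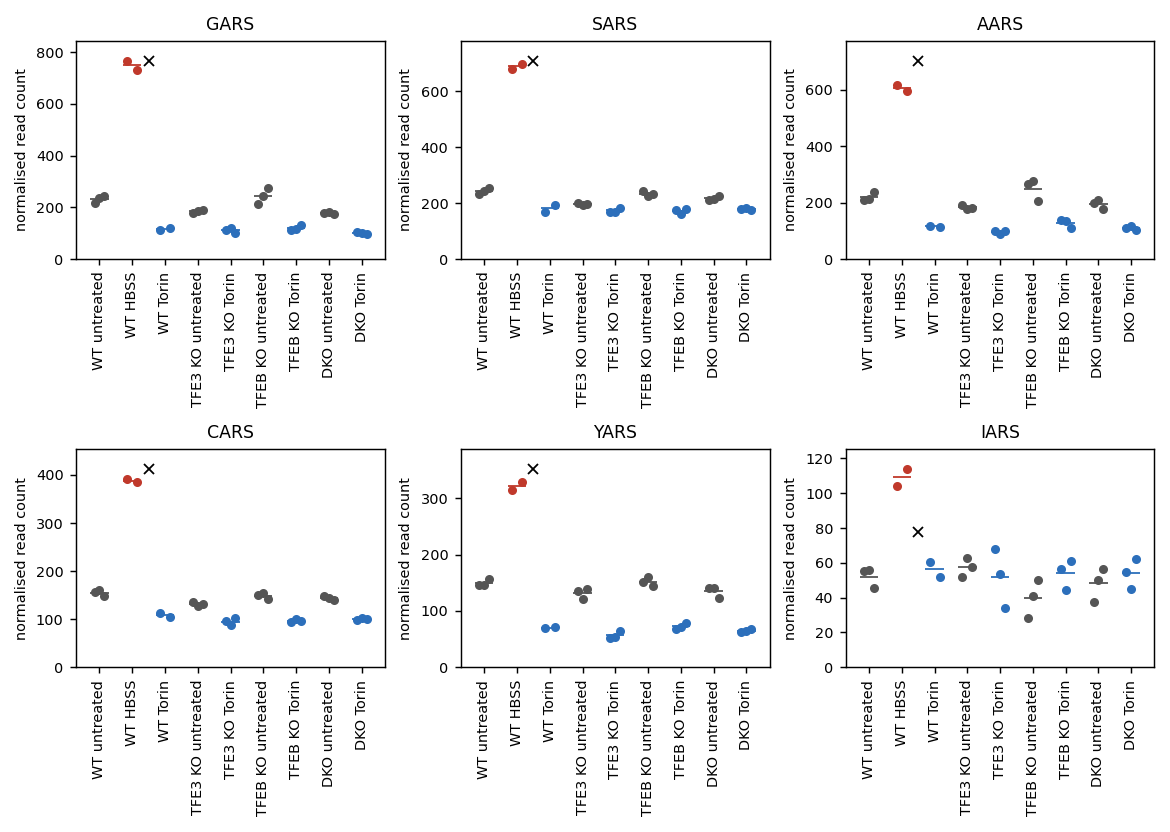
Normalised read counts of the 6 cytosolic members with the largest change in HBSS, by group; points are libraries, horizontal lines are group means, and the cross is the column held under both a WT HBSS and a WT Torin name. In each panel the HBSS points lie above every other group, and for GARS, SARS, AARS, CARS and YARS every Torin point lies below the untreated points of its genotype.

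The rise was not shared by all cytosolic enzymes. RARS, the arginine enzyme of the complex, had 349, 330.0 and 324 normalised read counts untreated and 191 and 210.3 in HBSS, and fell by 0.74 on the log2 scale (SE 0.09, adjusted p = 1.48e-09). FARSA and FARSB, the paired subunits of the phenylalanine enzyme, fell by 0.68 and 0.62 on the log2 scale, and HARS, the histidine enzyme, by 0.56. These 4 falls were kept under all alternatives. KARS, the lysine enzyme of both compartments, had 284, 265 and 268 untreated and 272 and 289 in HBSS, and its log2 fold change was 0.04 (SE 0.08, adjusted p = 0.704). VARS, the valine enzyme, had a log2 fold change of -0.19 (SE 0.10, adjusted p = 0.108). By place in the cell, 5 of the 8 complex members rose, 1 fell and 2 did not pass, with a median log2 fold change of 0.54, and 8 of the 12 freestanding members rose, 3 fell and 1 did not pass, with a median of 0.88. Of the 7 members that rose by a log2 fold change of at least 1, IARS was the only complex member.

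Among the 16 mitochondrial members, 2 rose, 6 fell and 8 did not pass the test in HBSS, with a median log2 fold change of -0.18. The share that rose was under that of all genes and the share that fell was above it. CARS2, the cysteine enzyme of the mitochondrion (chr13:110641412-110713603, minus strand), had 34.7, 34.6 and 47.8 normalised read counts untreated and 13.8 and 21.6 in HBSS, and fell by 1.12 on the log2 scale (SE 0.15, adjusted p = 3.02e-08). EARS2, the glutamate enzyme, went from 47.0, 39.4 and 45.5 to 28.8 and 26.4, a log2 fold change of -0.65 (SE 0.14, adjusted p = 1.62e-04). HARS2, VARS2, TARS2 and SARS2 fell by 0.54, 0.51, 0.44 and 0.41 on the log2 scale. NARS2, the asparagine enzyme, went the other way, from 15.9, 19.0 and 17.6 to 29.0 and 25.5, a log2 fold change of 0.61 (SE 0.18, adjusted p = 0.00466), and IARS2 rose by 0.43. FARS2 (11.2, 10.3 and 13.5 against 12.4 and 10.7) had a log2 fold change of -0.01 (SE 0.21, adjusted p = 0.984) and AARS2 (58.3, 78.0 and 67.9 against 59.8 and 68.6) of -0.08 (SE 0.14, adjusted p = 0.688). The number of mitochondrial members that passed was 5 in place of 8 without WT HBSS replicate 1, without WT HBSS replicate 2, or with the identical column kept as WT Torin. The call for SARS2 was the weakest and was lost under 8 of the 15 alternatives, VARS2 was lost under 3, TARS2 under 2 and IARS2 and NARS2 under 1 each.

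Where the same amino acid is handled by separate genes, the 2 compartments could be set side by side in 17 pairs of symbols. In HBSS the cytosolic gene had the higher log2 fold change in 13 of 17, with a median difference of 0.45. The cysteine pair was the farthest apart, with CARS at 1.32 and CARS2 at -1.12. The serine, alanine and threonine pairs had 1.50 against -0.41 (SARS and SARS2), 1.46 against -0.08 (AARS and AARS2) and 1.05 against -0.44 (TARS and TARS2). The histidine pair moved together, with HARS at -0.56 and HARS2 at -0.54. These 2 genes lie head to head on chromosome 5, with start sites at 140691370 and 140691455 (GRCh38.p14) that are 85 bases apart.

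**Figure D3:**
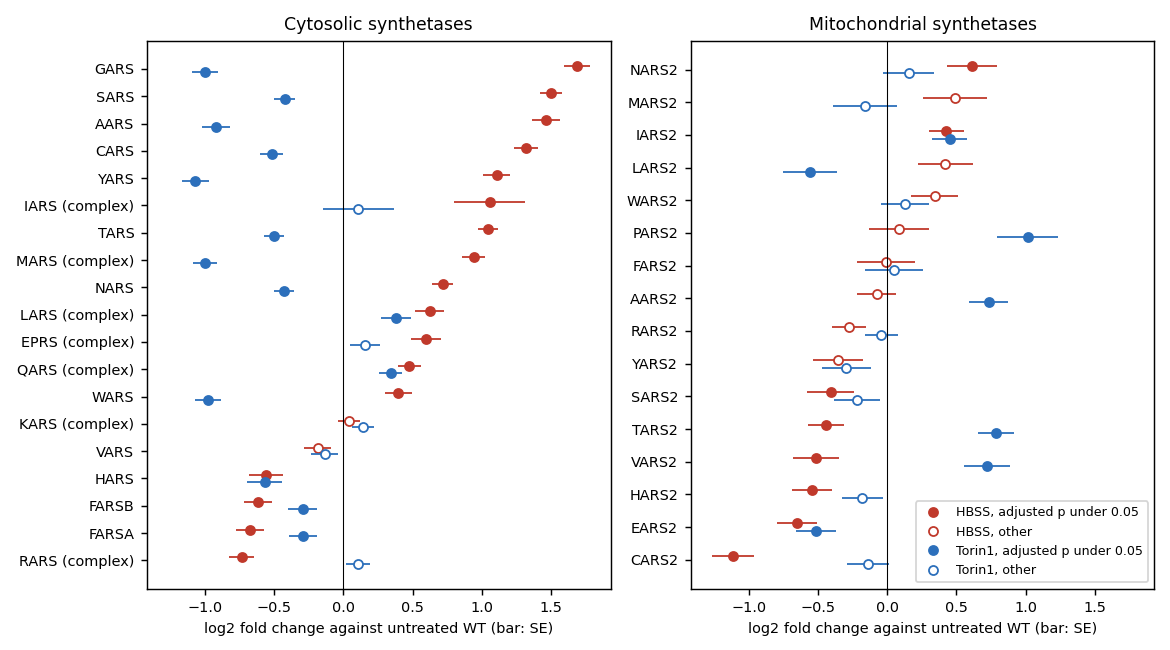
Log2 fold change of the members named in the text in WT cells with HBSS (red) and with Torin1 (blue) against untreated, for cytosolic (left) and mitochondrial (right) synthetases, with bars for the standard error and filled points for adjusted p under 0.05. Members are ordered by the HBSS value, which runs from 1.68 (GARS) to -0.74 (RARS) on the left and from 0.61 (NARS2) to -1.12 (CARS2) on the right.

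Promoter windows of 300 bases, 250 before and 50 after each RefSeq start site (GRCh38.p14), were available for 30 of the 36 members, and LARS, VARS, YARS, AARS2 and VARS2 were among those without. The letters TGATGNAA, the core of the amino acid response element, were searched on both strands because ATF4 is known to bind such elements. They were found in the windows of 7 of 16 cytosolic members (43.8%) and 1 of 14 mitochondrial members, against 4.46% of 27305 genes with windows. These 8 are printed 5′ to 3′ on the strand that reads TGATGNAA, with the element in capitals. The search fixed every letter of the element but N, so the other capital letters had to be alike.
GARS: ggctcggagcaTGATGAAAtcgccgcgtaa
AARS: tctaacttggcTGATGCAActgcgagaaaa
CARS: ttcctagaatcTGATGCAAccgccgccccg
IARS: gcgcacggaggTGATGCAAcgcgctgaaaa
TARS: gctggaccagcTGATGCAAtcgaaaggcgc
MARS: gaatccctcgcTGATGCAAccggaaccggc
NARS: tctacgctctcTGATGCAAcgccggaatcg
YARS2: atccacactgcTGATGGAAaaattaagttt
Their positions were GARS (chr7:30594834-30594863, minus strand, 33 bases upstream of the start), AARS (chr16:70289675-70289704, plus strand, 187 bases upstream of the start), CARS (chr11:3057407-3057436, plus strand, 2 bases upstream of the start), IARS (chr9:92293692-92293721, plus strand, 13 bases upstream of the start), TARS (chr5:33440956-33440985, minus strand, 2 bases downstream of the start), MARS (chr12:57488053-57488082, minus strand, 4 bases upstream of the start), NARS (chr18:57621804-57621833, minus strand, 14 bases downstream of the start) and YARS2 (chr12:32756076-32756105, minus strand, 197 bases upstream of the start). Each distance is to the first base of the element along the gene, so the elements of CARS and MARS run across the start. In 6 of the 7 cytosolic windows the element read TGATGCAA, and GARS had TGATGAAA. All 7 cytosolic members with the element rose in HBSS. Of the cytosolic members with a window, 11 rose, of which 7 held the element, and 4 fell, of which 0 did. Among 9648 other genes matched to a window by symbol, 3.79% of those that rose, 2.24% of those that fell and 6.16% of those that rose by a log2 fold change of at least 1 held it. A match is a description of the letters and was not shown to be a bound site.

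The sequence CACGTG, an E-box that TFE3, TFEB and MITF can bind, was looked for in the same windows and was found in 1 cytosolic and 3 mitochondrial members, against 8.77% of genes with windows. The 4 windows are printed because they hold the letters these factors can bind, with the E-box in capitals.
IARS: ggttcgttttcCACGTGgaggcgcaaaa
CARS2: gctgggatgcaCACGTGcttcgctaaca
EARS2: agggagaagccCACGTGtgctattccat
MARS2: tgcgcctctcaCACGTGctgtcagaacg
Their positions were IARS (chr9:92293867-92293894, minus strand, 186 bases upstream of the start), CARS2 (chr13:110706502-110706529, minus strand, 3 bases upstream of the start), EARS2 (chr16:23557349-23557376, minus strand, 15 bases upstream of the start) and MARS2 (chr2:197705347-197705374, plus strand, 11 bases upstream of the start). By the same measure of distance, the E-box of CARS2 runs across the start. None of the 4 members passed the test between untreated DKO and WT cells, with log2 fold changes of -0.13 (IARS), 0.13 (CARS2), -0.13 (EARS2) and 0.48 (MARS2). In the single knockouts CARS2 was higher in untreated TFE3 KO than in WT cells, by 0.47 on the log2 scale (adjusted p = 0.0190), and higher in TFE3 KO than in TFEB KO cells by 0.72 (adjusted p = 5.24e-05), while IARS, EARS2 and MARS2 did not pass in any of these comparisons. Binding was not measured in these data.

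Torin1 gave the reverse direction for most freestanding cytosolic members. In WT cells 12 cytosolic members fell, 3 rose and 5 did not pass, against 23.4% of all genes that fell and 20.5% that rose, and the median log2 fold change was -0.36 over the cytosolic members. Of the 12 freestanding members 11 fell and 0 rose by limma, and the remaining member, VARS, had a log2 fold change of -0.14. Of the 8 complex members MARS fell, 3 rose, LARS and QARS among them, and 4 did not pass. Among mitochondrial members 5 rose, 2 fell and 9 did not pass, with a median of 0.00.

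YARS fell most with Torin1, from 146, 145 and 156 normalised read counts in WT untreated libraries to 69.8 and 71.1, a log2 fold change of -1.07 (SE 0.10, adjusted p = 8.61e-13). MARS went from 223, 259.9 and 259 to 119 and 126 (log2 fold change -1.00, SE 0.09, adjusted p = 1.50e-13). Their mitochondrial counterparts YARS2 and MARS2 did not pass the test, at -0.30 and -0.16. GARS went from 217, 235 and 246 to 111 and 120.2 (log2 fold change -1.00, SE 0.09, adjusted p = 2.22e-12). WARS went from 129, 114 and 131 to 63.3 and 61.9 (log2 fold change -0.98, SE 0.10, adjusted p = 1.05e-11). In each of these 4 genes the Torin1 libraries lay far under the lowest untreated library. Over all genes, groups did not overlap in 60.2% in this comparison. PARS2, the mitochondrial proline enzyme, rose from 6.74, 6.33 and 6.05 to 16.9 and 11.4 (log2 fold change 1.01, SE 0.22, adjusted p = 1.64e-04), on 31 to 72 reads per library. TARS2, the mitochondrial threonine enzyme, rose from 37.3, 27.9 and 30.1 to 52.3 and 58.1 (log2 fold change 0.79, SE 0.13, adjusted p = 2.36e-06). AARS2 and VARS2 rose by 0.73 and 0.72, IARS2 by 0.45, and EARS2 and LARS2 fell by 0.51 and 0.56 on the log2 scale. The WT calls rested on leaving out the identical column, since with it kept as WT Torin only 6 cytosolic and 3 mitochondrial members passed and CARS, SARS and TARS changed sign. That column held 704 for AARS, 768 for GARS and 352 for YARS, above the WT HBSS libraries and far above the other WT Torin libraries. Without it, 15 of the 22 WT calls were kept under every other alternative, and calls such as those of LARS, FARSA, FARSB, EARS2, IARS2 and LARS2 were lost under at least 1.

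The knockout clones, whose libraries share nothing with the identical column, also had more cytosolic members lower than higher with Torin1. In TFE3 KO cells 12 cytosolic members fell and 2 rose, against 26.0% of all genes lower and 25.4% higher. In TFEB KO cells 13 fell and 0 rose by limma, against 21.0% lower and 17.4% higher. In DKO cells 12 fell and 3 rose, against 26.2% lower and 25.4% higher. The members that fell in all 4 genotypes were AARS, CARS, FARSA, FARSB, GARS, HARS, MARS, NARS, SARS, TARS, WARS and YARS, 12 genes of which MARS was the only complex member. Under the alternatives the calls lost in the knockouts were those of SARS, IARS2, MARS2 and NARS2 in TFE3 KO cells, VARS, LARS2 and NARS2 in TFEB KO cells and EPRS, FARS2 and WARS2 in DKO cells, each under at least 1 alternative. No mitochondrial member passed in the same direction in all 4 genotypes, where 1853 of all genes fell and 1379 rose.

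In TFE3 KO cells YARS fell from 135, 121 and 139 normalised read counts to 52.4, 54.5 and 64.9 (log2 fold change -1.19, SE 0.09, adjusted p = 3.52e-16). MARS fell from 262, 279 and 263 to 128, 142 and 145 (log2 fold change -0.95, SE 0.08, adjusted p = 8.51e-15). AARS fell from 189.8, 179 and 180.4 to 100.5, 88.4 and 98.6 (log2 fold change -0.93, SE 0.09, adjusted p = 2.82e-12). None of the 3 had overlapping groups, which also held for 58.4% of all genes in this comparison. In TFEB KO cells WARS fell from 193, 192 and 171 to 86.9, 79.3 and 78.8 (log2 fold change -1.17, SE 0.09, adjusted p = 1.54e-15), YARS had -1.05 and GARS -1.03. In DKO cells YARS fell from 141, 139.8 and 123 to 62.9, 65.1 and 67.1 (log2 fold change -1.04, SE 0.09, adjusted p = 3.68e-14) and MARS had -0.97. VARS2, the mitochondrial valine enzyme, rose in the DKO from 15.7, 20.9 and 17.5 to 36.8, 30.3 and 33.8 (log2 fold change 0.87, SE 0.15, adjusted p = 3.13e-06). Of the 16 mitochondrial members 4 rose and 2 fell in TFE3 KO cells, against 25.4% and 26.0% of all genes. In TFEB KO cells 2 rose and 2 fell, against 17.4% and 21.0%. In DKO cells 4 rose and 2 fell, against 25.4% and 26.2%. None of these shares of the 16 was above that of all genes, and the shares that rose in TFE3 KO and DKO cells were about equal to it. In the 17 cytosolic and mitochondrial pairs, the cytosolic gene had the higher Torin1 log2 fold change in 3 pairs in WT, TFE3 KO and TFEB KO cells and in 5 pairs in DKO cells.

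**Figure D4:**
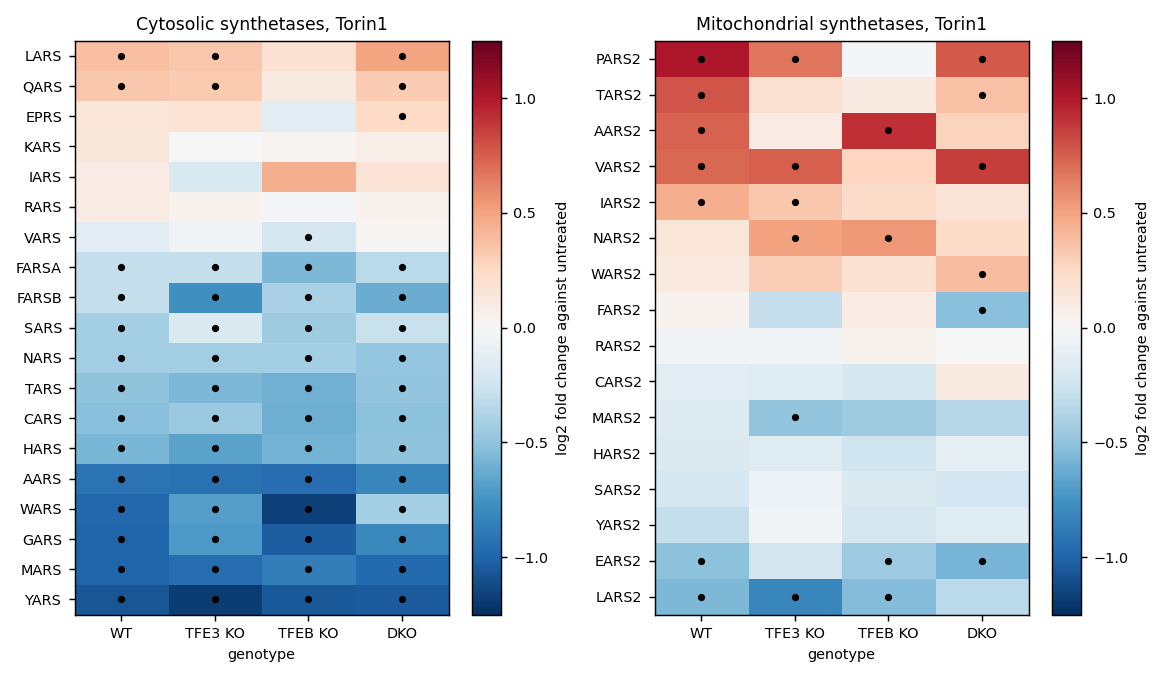
Log2 fold change of the members named in the text with Torin1 against untreated in the 4 genotypes (WT, DKO and both single knockouts) for cytosolic (left) and mitochondrial (right) members, as a colour scale from blue (lower) to red (higher), with a dot where adjusted p was under 0.05. The lower rows of the left panel are blue and dotted in all 4 columns, and the right panel has no row dotted in all 4.

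The HBSS calls in WT and the Torin1 calls in the knockouts have no library in common, so their members could be counted together. Of the 13 cytosolic members that rose in HBSS, 9 fell with Torin1 in each knockout (69.2% of the HBSS list, and 75.0%, 69.2% and 75.0% of the Torin1 lists of TFE3 KO, TFEB KO and DKO), and they were AARS, CARS, GARS, MARS, NARS, SARS, TARS, WARS and YARS. Over all genes, 16.2% of those that rose in HBSS fell with Torin1 in TFE3 KO cells, 10.8% in TFEB KO cells and 17.3% in DKO cells. Of all genes that fell with Torin1 in these knockouts, 14.7%, 12.1% and 15.5% rose in HBSS. Of all 20 cytosolic members, 12, 13 and 12 fell with Torin1, so a high share was not particular to those that rose in HBSS. FARSA, FARSB and HARS, which fell in HBSS, also fell with Torin1 in each knockout. The other 4 of the 13 that rose in HBSS, EPRS, IARS, LARS and QARS, were all complex members. None of these 4 passed as lower with Torin1 in any genotype.

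Set directly against each other in WT cells, HBSS was higher than Torin1 in 11 cytosolic and 2 mitochondrial members and lower in 3 and 5, against 26.1% of all genes higher and 23.1% lower. GARS had 765 and 733 in HBSS against 111 and 120.2 with Torin1, a log2 difference of 2.68 (SE 0.10, adjusted p = 6.04e-26). AARS had 618 and 595 against 117 and 114 (2.38, SE 0.11, adjusted p = 6.18e-23), and YARS 315 and 329.6 against 69.8 and 71.1 (2.18, SE 0.11, adjusted p = 4.47e-22). TARS2 and VARS2 were each lower in HBSS, with log2 differences of -1.23. FARSA, FARSB and RARS were the 3 cytosolic members lower in HBSS than with Torin1.

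In untreated cells, 6 or 7 of the 36 members differed between each knockout and WT. In TFE3 KO cells 2 members were higher and 4 lower than in WT, against 3.57% and 5.84% of all genes. WARS (chr14:100333790-100376805, minus strand) had 88.7, 84.2 and 88.4 normalised read counts against 129, 114 and 131 in WT (log2 fold change -0.51, SE 0.09, adjusted p = 2.52e-05). GARS, SARS and CARS were lower by 0.33, 0.30 and 0.24 on the log2 scale. CARS2 was higher, at 52.6, 55.5 and 53.3 against 34.7, 34.6 and 47.8 (0.47, SE 0.14, adjusted p = 0.0190), as was TARS2, at 39.4, 42.5 and 40.2 against 37.3, 27.9 and 30.1 (0.36, SE 0.12, adjusted p = 0.0401). The count of 6 fell to 3 without WT untreated replicate 2, TFE3 KO untreated replicate 2 or TFE3 KO untreated replicate 3, and WARS and SARS were the calls kept under all alternatives.

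In TFEB KO cells 2 members were higher and 4 lower, against 7.46% and 7.18% of all genes. VARS had 73.1, 71.2 and 80.7 against 103, 128 and 119.8 in WT (log2 fold change -0.63, SE 0.09, adjusted p = 7.60e-07). WARS was higher here, at 193, 192 and 171 against 129, 114 and 131 (0.57, SE 0.09, adjusted p = 5.38e-06). PARS2 was higher at 11.4, 9.93 and 9.62 against 6.74, 6.33 and 6.05 (0.62, SE 0.20, adjusted p = 0.0259), and NARS2, SARS2 and IARS2 were lower by 0.51, 0.44 and 0.37 on the log2 scale. WARS thus moved in opposite directions in the 2 single knockouts, with no overlap between any of the 3 groups. Over all genes, groups did not overlap in 27.5% (TFE3 KO and WT), 28.2% (TFEB KO and WT) and 42.8% (TFE3 KO and TFEB KO). The count of 6 fell to 3 without WT untreated replicate 2 or WT untreated replicate 3 and to 2 without TFEB KO untreated replicate 1, and VARS and WARS were kept throughout. In DKO cells 2 members were higher and 5 lower, against 5.64% and 7.49% of all genes. WARS had 86.8, 83.8 and 79.5 (log2 fold change -0.57, SE 0.09, adjusted p = 2.20e-06), close to its TFE3 KO values. AARS2 (60.3, 41.7 and 46.6 against 58.3, 78.0 and 67.9) was lower by 0.46 and VARS2 (15.7, 20.9 and 17.5 against 20.7, 21.8 and 32.6) by 0.43 on the log2 scale, although groups of both overlapped. GARS and VARS were lower by 0.38 and 0.32, and TARS2 and FARSB were higher by 0.43 and 0.30. The count of 7 fell to 3 without WT untreated replicate 2 and to 4 without DKO untreated replicate 2, and WARS and GARS were kept throughout. Beside these values, MITF fell by 0.46 on the log2 scale in DKO cells, and COL1A1 was higher in TFEB KO and DKO cells by 1.32 and 1.58, and their part in the result was not tested.

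**Figure D5:**
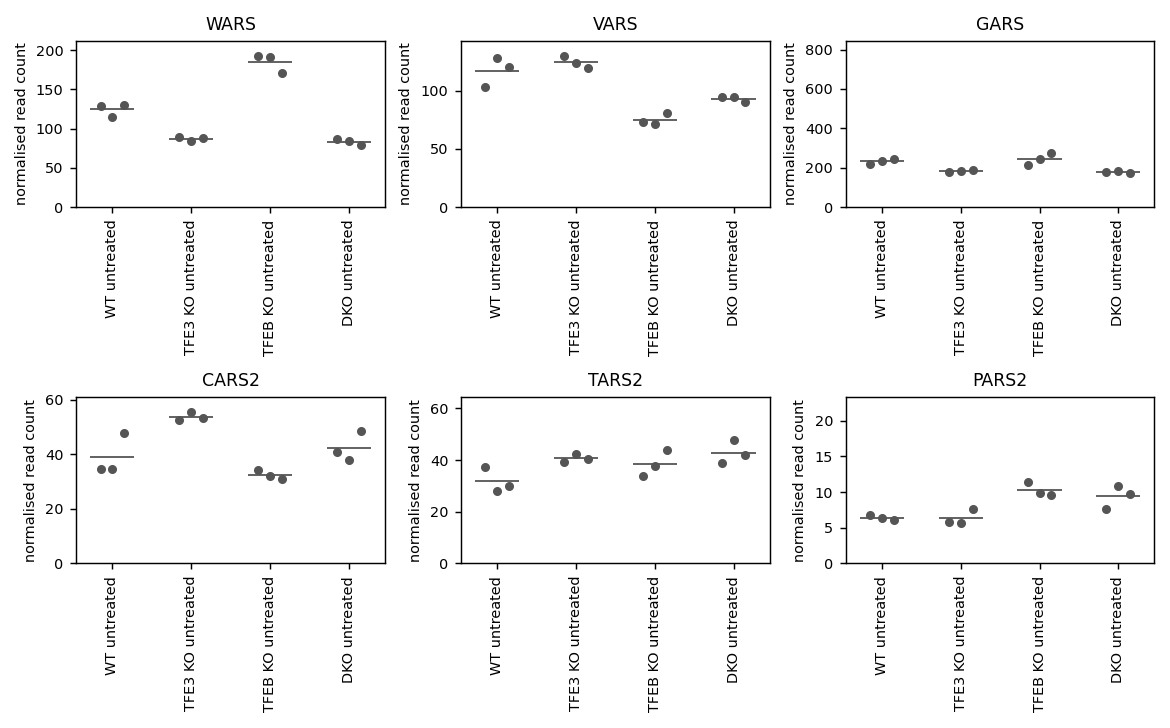
Normalised read counts of WARS, VARS, GARS, CARS2, TARS2 and PARS2 in the untreated libraries of the 4 genotypes; points are libraries and horizontal lines are group means. WARS lies at 171 to 193 in TFEB KO, 114 to 131 in WT and 79.5 to 88.7 in TFE3 KO and DKO libraries.

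Between the single knockouts, 10 members were higher in TFE3 KO than in TFEB KO cells and 5 were lower, against 14.3% and 15.6% of all genes. WARS differed most, with a log2 difference of -1.08 (SE 0.09, adjusted p = 4.89e-14), from 84.2 to 88.7 in TFE3 KO libraries and 171 to 193 in TFEB KO libraries. VARS was higher in TFE3 KO cells, at 129.8, 124 and 119.6 against 73.1, 71.2 and 80.7 (0.72, SE 0.09, adjusted p = 5.32e-09), and CARS2 also (0.72, SE 0.14, adjusted p = 5.24e-05). AARS, GARS, SARS and PARS2 were the other members lower in TFE3 KO cells. Apart from PARS2, the members lower in TFE3 KO cells were freestanding enzymes of the cytosol. The calls were kept under all alternatives for 9 of the 15 members, and that of FARS2 was lost under 11 of 14.

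Whether TFE3 or TFEB altered the Torin1 response was tested as the difference between a knockout's response and that of WT, and at most 1 member passed. In the test of the difference between the TFE3 KO response and the WT response 0 of 36 members passed by limma, 0 by edgeR and 1 by DESeq2, against 1.06% of all genes that passed by limma. At an unadjusted p under 0.05 by limma there were 6 of the 36 members, against 10.7% of all genes. The same count was 4 against 13.6% for TFEB KO and 5 against 9.82% for DKO. For TFEB KO 1 member passed, TARS2, whose response was smaller by 0.68 on the log2 scale (SE 0.17, adjusted p = 0.0348), against 1.16% of all genes. The same difference for TARS2 was -0.60 in TFE3 KO cells (adjusted p = 0.0864) and -0.42 in DKO cells (adjusted p = 0.380), neither of which passed, and all 3 differences were taken from the same 2 WT Torin libraries. For DKO 1 passed, WARS, whose fall was smaller by 0.56 (SE 0.13, adjusted p = 0.0293), against 0.506% of all genes. WARS was already low in untreated DKO libraries, at 79.5 to 86.8, and lay at 58.6 to 66.7 with Torin1, while WT Torin libraries lay at 61.9 and 63.3. Both calls rested on few libraries and were lost under 11 and 9 of 21 alternatives.

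The other genes of tRNA charging were counted beside the synthetases, with no test of a difference from them. Of 17 listed partners 16 were in the table, and in HBSS 3 rose and 5 fell, against 23.6% and 24.7% of all genes. XPOT, the exporter of tRNA from the nucleus, rose from 12.8, 8.71 and 9.56 normalised read counts to 36.4 and 33.5 (log2 fold change 1.68, adjusted p = 2.64e-07). AIMP2, a scaffold of the multi-synthetase complex, fell from 207, 181 and 176 to 93.9 and 94.4 (log2 fold change -0.99, adjusted p = 1.17e-11). With Torin1 in WT cells AIMP2 and EEF1E1, another scaffold protein of the complex, fell by 0.59 and 0.92 on the log2 scale. In that comparison 2 of the 16 partners rose and 3 fell, against 20.5% and 23.4% of all genes.

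A list of 18 genes of the GCN2 and ATF4 pathway, none of them a synthetase, was read beside the members. In HBSS 14 rose and 2 fell, against 23.6% and 24.7% of all genes, with a median log2 fold change of 1.50. By sign, 15 of the 18 had a positive log2 fold change in HBSS. EIF2AK4, the gene of GCN2, had a mean of 90.3 in untreated WT cells and 60.2 in HBSS. EIF2S1 went from 135.7 to 109.2 and PSAT1 from 22.2 to 15.3. With Torin1 in WT cells 2 rose and 11 fell, against 20.5% and 23.4% of all genes, with a median of -0.62. ATF4 mRNA was at 381 to 400.3 normalised read counts untreated, 1412 and 1474 in HBSS and 522 and 495 with Torin1. ASNS, the asparagine synthetase that makes the amino acid itself, was at 45.1 to 46.1 untreated, 202 and 207 in HBSS and 17.6 and 18.7 with Torin1. With Torin1 the ATF4 transcript was therefore higher (log2 fold change 0.37, adjusted p = 3.80e-05) while ASNS and 12 cytosolic synthetases were lower. In untreated TFE3 KO cells 10 of the 18 were lower and 1 higher, against 5.84% and 3.57% of all genes. Among the lower were ASNS by 1.20 and CHAC1, a glutathione-degrading enzyme, by 1.24 on the log2 scale. PSAT1, of serine synthesis, and NUPR1, a stress-induced nuclear protein, lay at 18.2 to 28.8 and 17.1 to 19.3 in WT untreated libraries, and at most at 0.767 and 0.312 in TFE3 KO untreated libraries, which is about the value of 3 reads. The cytosolic synthetases in those same libraries were lower by at most 0.51 on the log2 scale. In untreated DKO cells 5 of the 18 were lower and 0 higher, against 7.49% and 5.64% of all genes. There PSAT1 and NUPR1 had means of 0.156 and 0.817, and ASNS was lower by 1.13 on the log2 scale. In untreated TFEB KO cells 2 were lower and 2 higher, against 7.18% and 7.46% of all genes. PSAT1 had 18 to 39 reads in those libraries, against 92 to 175 in WT untreated libraries. All 7 melanocyte markers also rose in HBSS, against 23.6% of all genes, with a median log2 fold change of 0.90. The part of this in the synthetase result was not tested.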

How the data were processed

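Total RNA was prepared with an RNeasy kit and sequenced as QuantSeq Forward 3′ end libraries. Per the labels and the study's methods, the authors trimmed reads (FastQC 0.11.9, cutadapt 2.10), mapped them to hg38 with STAR 2.7.8a and normalised them with edgeR; the read counter, annotation, gene filter and scaling method are not given in the sources used here. Growth medium is given as DMEM in the labels and RPMI in the methods. The deposited table holds normalised signal values, gene counts scaled for library size, for 13523 genes in 27 columns. Whole reads were recovered from the steps between low values in 100% of values (within 0.1 of a whole number), and gave depths of 4147050 to 6526392 reads, where 3 reads equal 0.460 to 0.711. Intervals from reads cover counting error only.

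Members and lists were chosen with earlier results of these data known. Groups came from the labels. The 2 columns that were identical in all genes were left out. Values were analysed as log2(value + 1) with limma 3.58.1 (R 4.3.3, trend and robust), in 1 fit over 25 libraries, where a gene had to reach a value of 1 in 3 or more libraries (13052 tested, 471 left out). A fold change is on that scale, which understates changes of low genes. P-values were two-sided and Benjamini-Hochberg adjusted over all genes within each of 13 comparisons. A member passed at adjusted p under 0.05. Each library left out in turn and 10 further alternatives were tried: pseudocount 0.1, no filter, a minimum of 5, edgeR 4.0.16 quasi-likelihood and DESeq2 1.42.0 on recovered reads, median-of-ratios scaling, a replicate block, only the groups compared, and the identical column kept under either name. On the recovered reads edgeR passed 6137 genes in HBSS, against 6299 with limma. Scripts were tested on simulated counts. Values per library were given for the members with the largest and smallest changes in HBSS, the largest with Torin1, and the 3 passing members with the largest change in each other comparison; further values were chosen after they were seen. Promoter windows came from RefSeq (GRCh38.p14) by current symbol (AARS1 for AARS and so on). A member and a partner gene are not reported here by name; counts include them.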

Additional observations from a re-analysis of the deposited data

Results flagged for a closer look

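The fall of WARS with Torin1 was smaller in DKO than in WT cells, with a difference of 0.56 on the log2 scale by the test of that difference. The rise of TARS2 with Torin1 was smaller in TFEB KO than in WT cells, with a difference of -0.68. In TFE3 KO and DKO cells the same difference was -0.60 and -0.42 and did not pass the test, and all 3 share the same 2 WT Torin libraries. The column held under both a WT HBSS and a WT Torin name, which no comparison used, was higher than every WT untreated library in 15 of the 20 cytosolic synthetases, and its cytosolic sum was 7448 normalised read counts and its mitochondrial sum 404, where the other WT HBSS libraries had 7030 to 7061 and 420 to 430 and the other WT Torin libraries 3421 to 3515 and 543 to 554.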

How the results depend on the processing

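The number of cytosolic members that passed in HBSS was 17 and ranged from 17 to 18 without a single replicate. Mitochondrial members that passed in HBSS numbered 8, 5 with the identical column kept as WT Torin and 5 to 9 without a single replicate. With the identical column kept as WT Torin, members that passed with Torin1 in WT cells went from 15 to 6 (cytosolic) and from 7 to 3 (mitochondrial). Without a single replicate these were 11 to 15 and 5 to 7. Untreated, 3 to 4 members passed in TFE3 KO, 2 to 7 in TFEB KO and 3 to 8 in DKO cells without a single replicate, against 6, 6 and 7 with all. For the difference in Torin1 response of TFE3 KO cells, 0 members became 1 with DESeq2, with the replicate block and with only the groups compared, and 0 to 2 without a single replicate (2 without WT untreated replicate 1). For TFEB KO and DKO cells the 1 member became 0 with the identical column kept as WT Torin or only the groups compared, and ranged from 0 to 1 without a single replicate. The cause of these changes was not tested. Same-numbered samples did not deviate together (median r 0.01 over 92 pairs, from -0.19 to 0.16), which cannot show whether they were prepared together. Under the replicate block 17 cytosolic and 7 mitochondrial members passed in HBSS. No scaling moved the median of all genes by 0.1. With 4147050 or more reads per library, depth limits the lowest mitochondrial members most, such as PARS2 at 26 to 138 reads over all libraries.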
